A study of Mus musculus with 12 samples.

Results

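Gene expression in cortical endothelial cells of the adult mouse brain was compared between endothelial gain of function of beta-catenin (beta-catenin GOF, 3 libraries) and libraries labelled as an endothelial knockout of Ezh2 (Ezh2 ECKO, 3 libraries). These are 6 of the 12 libraries of the series, taken by their titles. The count table holds 21638 genes, and the test covered the 12577 whose count averaged 10 or more across all 12 libraries. Beta-catenin GOF mice carried Ctnnb1lox/lox:Cdh5CreERT2 and Ezh2 ECKO mice carried Ezh2lox/lox:Cdh5CreERT2. Cdh5CreERT2 is a Cre recombinase that tamoxifen activates and that the Cdh5 promoter restricts to endothelium. Both groups received 5 doses of tamoxifen at 75 mg/kg, and brains were taken 2 months later. Wild type (WT, 3 libraries) is given as a reference level. The remaining 3 libraries are labelled as an endothelial knockout of Hdac2 (Hdac2 ECKO), with the same tamoxifen doses and time to harvest. All 12 libraries entered the fit. The labels do not say whether WT mice received tamoxifen, nor which exons are floxed, nor the strain, age in weeks or sex. Cells were sorted as CD31+, CD41- and CD45-, a gate that keeps endothelium and removes platelets and leukocytes, and RNA was amplified with SMART-Seq v4 PLUS, a full-length cDNA kit for few cells. Nothing in the labels says that replicates came from separate animals, so p-values measure only the spread between these samples, which may be technical.

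Beta-catenin is the intracellular effector of canonical Wnt signalling: when its destruction complex is inhibited it enters the nucleus and activates genes with TCF/LEF factors. In brain endothelium this pathway is known for inducing and maintaining the blood-brain barrier. Ezh2 is the catalytic subunit of Polycomb repressive complex 2 (PRC2), which methylates histone H3 at lysine 27 and keeps developmental genes silent.

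The beta-catenin GOF libraries held 32405794, 36109975 and 34495856 counts and the libraries labelled Ezh2 ECKO held 30880870, 30877689 and 26194646. Pecam1, which encodes CD31, lay between 204 and 327 CPM (counts per 1000000 of the scaled library total) in the 6 libraries, and Cdh5 (VE-cadherin) between 131 and 285 CPM. Ptprc, which encodes CD45, was at most 0.431 CPM, while Itga2b, which encodes CD41, was present at 8.6 to 32.8 CPM. Library Ezh2 ECKO 2 stood apart from its group. Its log2 profile correlated across genes at r = 0.932 and 0.934 with Ezh2 ECKO 1 and 3, which correlated at 0.964 with each other, and at 0.951 to 0.955 with the 3 beta-catenin GOF libraries. Results that rest on it are given with and without it.

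The targeted genes were examined first. Ezh2 (ENSMUSG00000029687.16, chromosome 6, 47530139 to 47595341, minus strand, GRCm38) stood at 9.85, 5.19 and 11.7 CPM in the labelled Ezh2 ECKO libraries, at 8.26, 9.02 and 10.8 CPM in beta-catenin GOF and at 8.88, 2.69 and 8.69 CPM in WT. The 3 groups overlapped, so the Ezh2 message was not lower in the libraries labelled for its knockout. Counts per gene do not resolve exons, and a message that lacks a deleted exon would still be counted, so this level does not measure recombination. The log2 fold change, beta-catenin GOF minus labelled Ezh2 ECKO as everywhere here, was 0.07 (SE 0.46, edgeR adjusted p 0.96). Ctnnb1 (ENSMUSG00000006932.17, chromosome 9, 120929216 to 120960507, plus strand) stood at 696, 576 and 478 CPM in beta-catenin GOF and at 1300, 754 and 1250 CPM in the labelled Ezh2 ECKO libraries. All 3 beta-catenin GOF values were the lower ones, with a log2 fold change of -0.92 (SE 0.29) that missed the threshold (edgeR adjusted p 0.285). Stabilised beta-catenin is a change of the protein, which the message level does not show. Without Ezh2 ECKO 2 the value for Ctnnb1 was -1.13 and passed (edgeR adjusted p 0.0376). With the length trend described below also removed, Ctnnb1 was no longer called lower. The 16 tested genes of the beta-catenin core and destruction complex, Ctnnb1 included, summed to 1210, 1140 and 1070 CPM in beta-catenin GOF. Their sums were 1980, 1280 and 1820 CPM in the labelled Ezh2 ECKO libraries and 1050, 1150 and 1300 CPM in WT, which overlapped both. Ctnnb1 overlaps Ulk4 on the opposite strand, which was at 510, 400 and 293 CPM against 1050, 557 and 966 CPM, also lower without overlap (log2 fold change -1.10 with an SE of 0.33, edgeR adjusted p 0.277). In WT, Ulk4 was at 326, 385 and 593 CPM and overlapped both groups. The use of strand in counting is not given in the sources used here, so reads of the pair cannot be told apart.

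Across all genes, 8 passed an adjusted p of 0.05, which is 0.0636% of those tested. Of these, 3 were higher in beta-catenin GOF (0.0239%): Uchl1, Gimap4 and Sgce. The other 5 were lower (0.0398%): Ifi202b, Ifi203, Npw, Gdpd3 and Cp. At an unadjusted p under 0.05 there were 1655 genes, 774 higher and 881 lower. The 3 values of each group did not overlap for 1003 genes that were higher in beta-catenin GOF (7.97%) and for 1091 that were lower (8.67%). Against WT, the labelled Ezh2 ECKO libraries passed the test in 7 of the 8 genes, all but Cp, and beta-catenin GOF passed in none.

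**Figure D1:**
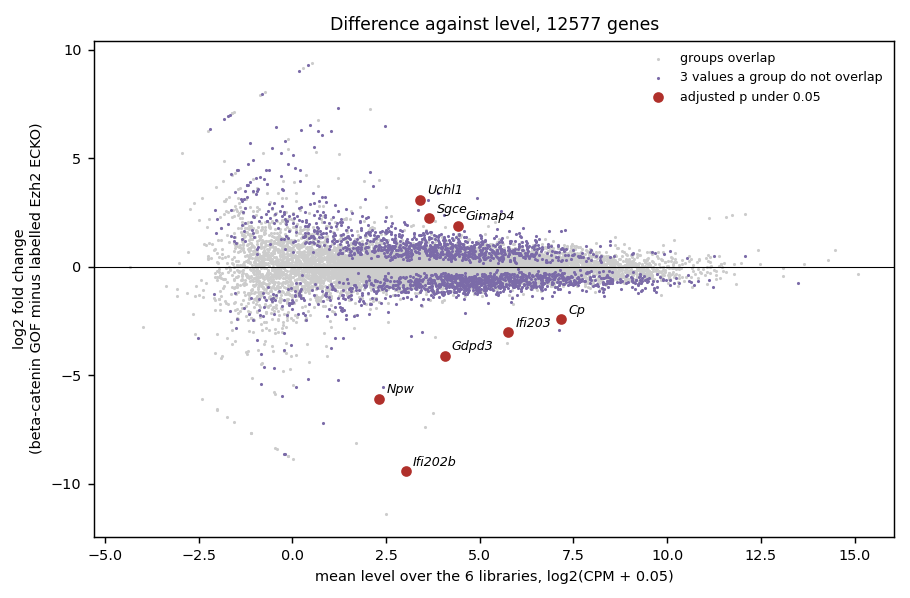
Log2 fold change, beta-catenin GOF minus labelled Ezh2 ECKO (vertical axis), against the mean level over the 6 libraries in log2(CPM + 0.05) (horizontal axis), 1 point per gene. The 8 red points passed an adjusted p of 0.05, 3 above 0 and 5 below, and purple points are genes whose groups do not overlap.

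Ifi202b and Ifi203 belong to the Ifi200 family, interferon-inducible proteins of which several bind DNA in the cytosol or nucleus. Both are on chromosome 1, minus strand: Ifi202b (ENSMUSG00000026535.9) at 173962568 to 173982744 and Ifi203 (ENSMUSG00000039997.16) at 173920407 to 173942672. Their promoters are shown because the 2 genes are neighbours that were both called lower in beta-catenin GOF than in the labelled Ezh2 ECKO libraries. The sequences run from 250 bases before to 50 after a RefSeq start on GRCm38.p6. They lie at chr1:173982795-173983094 and chr1:173942443-173942742, both on the minus strand. These RefSeq starts differ from the gene starts given above. The Ifi202b window lies wholly before its gene as given, and the Ifi203 start lies inside its gene. Capitals mark the pair GAAANNGAA, a spacing found in interferon response elements.
Ifi202b: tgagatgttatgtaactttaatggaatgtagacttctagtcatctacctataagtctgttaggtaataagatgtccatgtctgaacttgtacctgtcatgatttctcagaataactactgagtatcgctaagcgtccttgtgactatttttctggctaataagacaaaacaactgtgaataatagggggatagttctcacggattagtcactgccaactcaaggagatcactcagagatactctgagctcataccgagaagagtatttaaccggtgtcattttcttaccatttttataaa
Ifi203: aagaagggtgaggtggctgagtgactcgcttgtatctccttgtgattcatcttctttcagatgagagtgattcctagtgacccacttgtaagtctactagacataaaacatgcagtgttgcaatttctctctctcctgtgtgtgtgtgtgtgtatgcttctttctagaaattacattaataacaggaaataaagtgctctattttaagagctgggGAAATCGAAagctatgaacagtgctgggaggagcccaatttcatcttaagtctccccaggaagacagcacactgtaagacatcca
The pair, searched on both strands, occurred once in this Ifi203 promoter and in 8.56% of the 32851 promoters of the table. It was in neither the Ifi202b promoter nor a further Ifi203 promoter that overlaps the printed one. That further promoter has its start at the gene start given above, and the printed Ifi203 promoter is the one that holds the pair. The search was first made with 1 more A at the end of the pair, 10 letters in all, and the form of 9 letters was taken up after that result was known. The longer form also matched only this 1 of the 8 promoter entries of the called genes, and 3.44% of all promoters held it. The TCF/LEF core ATCAAAG, on either strand, was in none of the 8 entries, which cover 6 of the 8 genes, and in 3.73% of all promoters. These matches describe letters in a window and no binding.

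Ifi202b stood at 15.8, 20.2 and 12.7 CPM in the labelled Ezh2 ECKO libraries. In beta-catenin GOF it had 0, 0 and 2 counts, against 487, 513 and 354 counts, and in WT it was at 0.0694, 0 and 0 CPM. It was thus detected at more than a trace in the labelled Ezh2 ECKO libraries and in no other of these 9 libraries. The ratio of the groups was 818, with an exact 95% interval of 226 to 6760 if every count is independent (edgeR adjusted p 0.00035). Between 80.9% and 84.0% of the counts from 10 to 50 were even in these 6 libraries, and with each 2 counts taken as 1 fragment the interval widened to 146 to 32400. Both intervals cover counting error only. It passed whichever of the 6 libraries was left out. Ifi203 stood at 112, 70.2 and 107 CPM in the labelled Ezh2 ECKO libraries and at 15.8, 6.89 and 13.6 CPM in beta-catenin GOF. The groups were well separated, and WT, at 10.6, 31.7 and 27.3 CPM, lay between them or with beta-catenin GOF. Its log2 fold change was -3.00 (SE 0.45, edgeR adjusted p 0.0128). Of the 9 family members tested, 2 were called lower (0.0398% of all genes) and 7 did not pass, with a family median of -0.82 against -0.02 over all genes. Among those that did not pass, Ifi211 was at -1.92 and Aim2, a sensor of cytosolic DNA, at 1.31, both with overlapping groups. Members of this family are similar in sequence, so how reads were divided between them is uncertain.

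Uchl1 (ENSMUSG00000029223.12, chromosome 5, 66676091 to 66687234, plus strand) encodes a ubiquitin hydrolase that is abundant in neurons. It stood at 24.9, 12.6 and 19.6 CPM in beta-catenin GOF and at 2.01, 2.68 and 1.98 CPM in the labelled Ezh2 ECKO libraries, with WT at 12, 10.6 and 17.4 CPM. Every beta-catenin GOF value was far above the other group, and the log2 fold change was 3.10 (SE 0.40, edgeR adjusted p 0.00746). Of 3 neuron markers tested, none passed. Stmn2, a neuronal microtubule regulator, was at 247, 116 and 207 CPM in beta-catenin GOF against 178, 422 and 211 CPM, and every other neuron marker was at most 1.95 CPM in the 6 libraries. The groups overlapped for Stmn2, which made up nearly the whole level of the list. Its part in the Uchl1 difference was not tested.

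Sgce (ENSMUSG00000004631.15, chromosome 6, 4674350 to 4747207, minus strand) encodes epsilon-sarcoglycan and is an imprinted gene expressed from the paternal allele. Its level was 24, 15.7 and 22.4 CPM in beta-catenin GOF, 2.43, 4.72 and 6.11 CPM in the labelled Ezh2 ECKO libraries and 31.4, 28 and 25.1 CPM in WT. The labelled Ezh2 ECKO values were the low ones (log2 fold change 2.23 with an SE of 0.33, edgeR adjusted p 0.0128). Of 15 imprinted genes tested, Sgce alone passed (0.0239% of all genes were called higher). The median was -0.07, and 4 were higher and 1 lower without overlap, against 7.97% and 8.67% of all genes. Igf2, a growth factor, was at 2.32, 2.32 and 1.39 CPM in beta-catenin GOF and 0.519, 0.472 and 0.647 CPM in the other group (edgeR adjusted p 0.322).

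Gimap4 (ENSMUSG00000054435.16, chromosome 6, 48684549 to 48692060, plus strand) encodes a GTPase of the immunity-associated protein family. It stood at 31.8, 30.7 and 38.2 CPM in beta-catenin GOF, at 8.75, 8.34 and 9.77 CPM in the labelled Ezh2 ECKO libraries and at 20.6, 25.1 and 18.1 CPM in WT. The spread within each group was small beside the difference (log2 fold change 1.91 with an SE of 0.27, edgeR adjusted p 0.0128). With the length trend described below removed, it no longer passed (edgeR adjusted p 0.0908).

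Npw (ENSMUSG00000071230.6, chromosome 17, 24657330 to 24658457, minus strand) encodes the precursor of neuropeptide W. It was at 10.3, 10.9 and 7.9 CPM in the labelled Ezh2 ECKO libraries, at 0.205, 0.106 and 0.116 CPM in beta-catenin GOF, which are 6, 4 and 4 counts, and at 0, 0 and 0.356 CPM in WT. Hdac2 ECKO, the remaining mutant of the series, was at 8.86, 5.87 and 14.6 CPM, so the labelled Ezh2 ECKO libraries were not the only ones with Npw. The log2 fold change was -6.07 (SE 0.89, edgeR adjusted p 0.0128). Gdpd3 (ENSMUSG00000030703.8, chromosome 7, 126766334 to 126775649, plus strand) encodes a phosphodiesterase of lysophospholipids. It was at 19.7, 60 and 14.7 CPM in the labelled Ezh2 ECKO libraries against 2.25, 1.61 and 1.68 CPM in beta-catenin GOF and 1.67, 0.76 and 3.28 CPM in WT. Library Ezh2 ECKO 2 was the highest, and without it the log2 fold change moved from -4.09 (SE 0.63, edgeR adjusted p 0.0146) to -3.22 (edgeR adjusted p 0.026).

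Cp (ENSMUSG00000003617.16, chromosome 3, 19957054 to 20009145, plus strand) encodes ceruloplasmin, the copper-carrying ferroxidase of iron export. It was at 22.9, 77.9 and 37.4 CPM in beta-catenin GOF, at 265, 162 and 301 CPM in the labelled Ezh2 ECKO libraries and at 149, 217 and 218 CPM in WT. Here beta-catenin GOF was the low group and the other 2 overlapped. The log2 fold change was -2.40 (SE 0.40, edgeR adjusted p 0.0363), and -2.08 between beta-catenin GOF and WT (edgeR adjusted p 0.35). Cp overlaps Hps3 on the opposite strand, which was at 13.6, 23 and 18.1 CPM against 43.9, 36.3 and 48.5 CPM (log2 fold change -1.23 with an SE of 0.26, edgeR adjusted p 0.123). Hps3 was lower without overlap as well, and reads of the pair cannot be told apart without strand. A fit of only the 6 libraries compared ended the call (edgeR adjusted p 0.109), and the same fit ended that of Sgce (edgeR adjusted p 0.108).

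**Figure D2:**
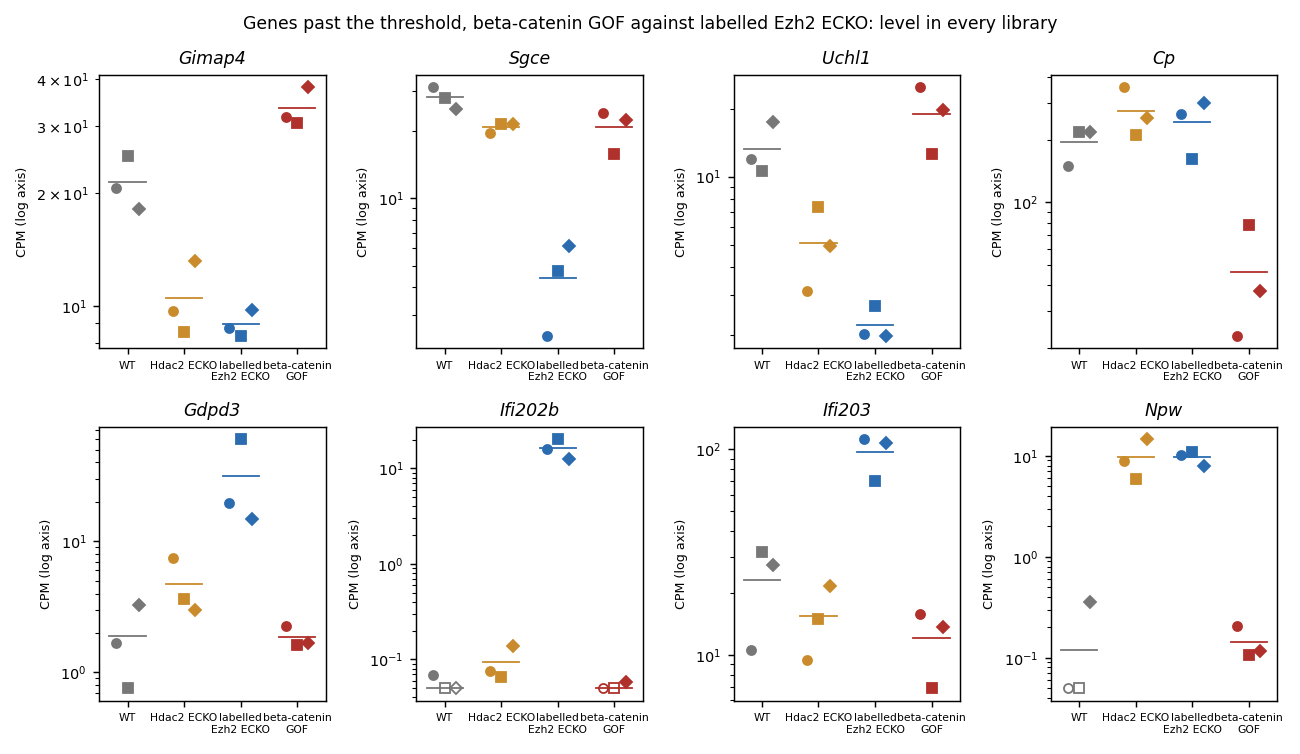
Level of the 8 genes past the threshold in CPM (log axis) in every library of the 4 groups. Circles, squares and diamonds are replicates 1, 2 and 3, lines are group means, and open symbols mark a value of 0 drawn at 0.05 CPM. For Ifi202b and Npw the beta-catenin GOF libraries are at or near 0, and for Cp the beta-catenin GOF libraries are the low group.

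Most of these calls were lost without Ezh2 ECKO 1, beta-catenin GOF 1 or beta-catenin GOF 3. Without Ezh2 ECKO 1, or without beta-catenin GOF 1, Ifi202b alone of the 8 passed. Without beta-catenin GOF 3 there were 2 of the 8, Ifi202b and Uchl1. Leaving out beta-catenin GOF 2 kept 5 and leaving out Ezh2 ECKO 3 kept 7, Cp being the gene lost. Without Ezh2 ECKO 2 all 8 passed, and the count of genes called grew to 732.

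Those 732 genes were 481 higher (3.82%) and 251 lower (2.00%) in beta-catenin GOF, and 731 had the same sign with all 6 libraries. They differed in length: the higher genes had a median length of 2357 bases and the lower ones 7827 bases, against 4429 bases over all genes tested. The genes were ordered by length and divided into 5 equal parts. With all 6 libraries, the shortest part had a median log2 fold change of 0.19 and the longest -0.26. Against single libraries, the beta-catenin GOF mean minus Ezh2 ECKO 1 was 0.42 in the shortest part and -0.40 in the longest, and Ezh2 ECKO 3 gave 0.43 and -0.43. Ezh2 ECKO 2 went the opposite way, at -0.26 and 0.11. Each library's log2 deviation from the mean of all libraries was also correlated by rank with gene length. The correlation was -0.325 in Ezh2 ECKO 2, and 0.264 and 0.339 in Ezh2 ECKO 1 and 3. It was -0.306, -0.245 and -0.281 in WT and -0.244, -0.215 and -0.183 in beta-catenin GOF. In Hdac2 ECKO it was 0.375, 0.191 and 0.392. Ezh2 ECKO 2 thus shared its sign with WT and beta-catenin GOF, and Ezh2 ECKO 1 and 3 with Hdac2 ECKO. When the length trend was removed from each library as well, a step added after the data were seen, 90 genes were called without Ezh2 ECKO 2, 62 higher (0.493%) and 28 lower (0.223%), and 85 of the 732 were among them. With all 6 libraries and the length trend removed, 7 of the 8 genes passed.

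**Figure D3:**
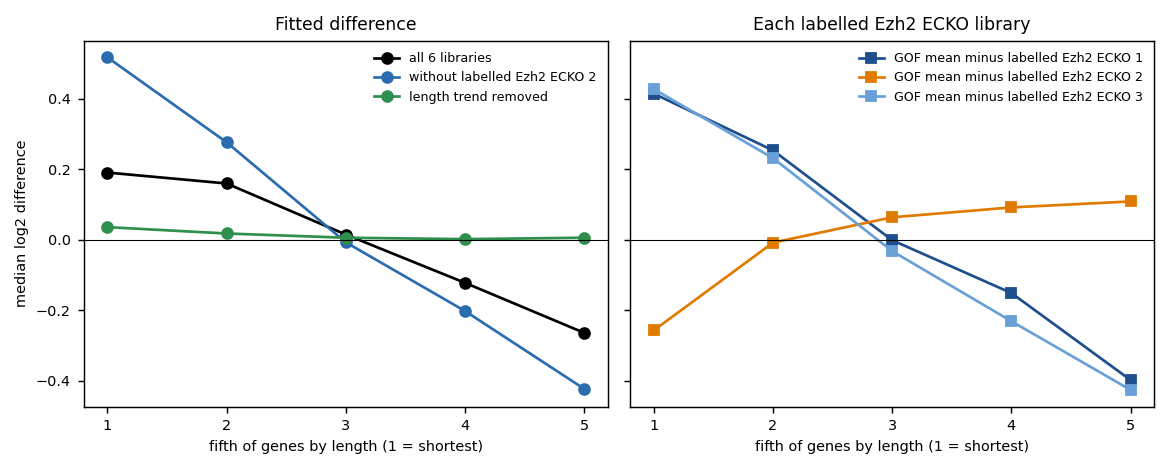
Median log2 difference, beta-catenin GOF minus labelled Ezh2 ECKO, in 5 equal parts of the genes ordered by length. The left panel gives the fit with all 6 libraries, without Ezh2 ECKO 2 and with the length trend removed, and the right panel gives the beta-catenin GOF mean minus each labelled Ezh2 ECKO library, where library 2 slopes the opposite way.

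Where fewer than 12 genes a direction passed, the genes of smallest p without overlap are given with their values. Arf5, a small GTPase of Golgi traffic, was at 44.4, 75 and 44 CPM in beta-catenin GOF and 2.33, 13 and 2.59 CPM in the labelled Ezh2 ECKO libraries (log2 fold change 3.20 with an SE of 0.59, edgeR adjusted p 0.0683). Dusp23, a phosphatase gene, was at 34.5, 30.8 and 31.5 CPM against 11.1, 14.8 and 7.72 CPM (edgeR adjusted p 0.0578). Rfng, a glycosyltransferase that modifies Notch receptors, was at 12.5, 11.5 and 6.27 CPM against 1.88, 2.52 and 2.95 CPM (edgeR adjusted p 0.0706). In each of these, beta-catenin GOF was the high group and did not overlap. Ntf3, the neurotrophin-3 gene, had 0 counts in the 3 labelled Ezh2 ECKO libraries and 5.53, 0.58 and 0.407 CPM in beta-catenin GOF (edgeR adjusted p 0.111). The beta-catenin GOF mean was at least 18.4-fold above a floor of 3 counts per library. Beta-catenin GOF 1 set most of that mean, and the bound does not hold for each library. Cbr2, a carbonyl reductase gene, was at 21.4, 8.34 and 3.08 CPM in beta-catenin GOF against 0.13, 0.0787 and 0.144 CPM, with WT at 0.416, 0 and 0.107 CPM (edgeR adjusted p 0.111). Here beta-catenin GOF stood apart from WT as well. The others of this kind were Lrp10 (1.47), Fuca1 (1.64), Ogfod2 (2.29) and Myl9 (2.58), as log2 fold changes.

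On the lower side, Hjurp, the chaperone that loads the centromeric histone CENP-A, was at 3.82, 1.79 and 1.74 CPM in beta-catenin GOF and 18.7, 17.4 and 22.4 CPM in the labelled Ezh2 ECKO libraries (log2 fold change -3.00 with an SE of 0.53, edgeR adjusted p 0.051). F2r, the thrombin receptor PAR1, was at 3.14, 1.16 and 0.929 CPM against 13.6, 12.8 and 21.6 CPM (log2 fold change -3.20 with an SE of 0.57, edgeR adjusted p 0.051). Pmaip1, which encodes the pro-apoptotic protein NOXA, was at 40.7, 29.8 and 25.6 CPM against 171, 366 and 191 CPM (log2 fold change -2.92, edgeR adjusted p 0.0599). These 3 genes missed the threshold narrowly, and none of their groups overlapped. F2r in beta-catenin GOF was also below its WT values of 11, 6.46 and 16.5 CPM. The others were Etl4 (-1.68), Rpf2 (-1.35), Uba6 (-1.27) and Psmg2 (-1.04), as log2 fold changes.

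No gene of the beta-catenin lists passed with all 6 libraries. Of 20 tested response genes, 11 were above and 9 below 0, with a median of 0.13, and 1 did not overlap, on the lower side, where 8.67% of all genes lay. That gene was Axin2, the feedback inhibitor often read as a Wnt reporter, at 17.8, 21.3 and 23.1 CPM in beta-catenin GOF and 33.4, 23.7 and 30.4 CPM in the labelled Ezh2 ECKO libraries (log2 fold change -0.49, edgeR adjusted p 0.494). Lef1, a DNA-binding partner of beta-catenin, overlapped at 429, 322 and 208 CPM against 657, 301 and 450 CPM. Dkk2, a secreted Wnt modulator, was at 3.27, 0.528 and 23.7 CPM in beta-catenin GOF against 0.357, 0.551 and 0.79 CPM (edgeR adjusted p 0.285). Nkd1, an inhibitor of Dishevelled, was at 22.9, 44 and 165 CPM against 33.3, 30.8 and 24.1 CPM (edgeR adjusted p 0.337). In both, beta-catenin GOF 3 was the high library and the groups overlapped. The 16 genes of the beta-catenin core and destruction complex had a median of 0.03, with 2 lower without overlap, and the 13 Wnt receptor genes had a median of -0.23, with overlapping groups for each.

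Without Ezh2 ECKO 2 these lists held calls, against 3.82% higher and 2.00% lower over all genes. Of the response genes 1 was called, Sox17, an endothelial transcription factor, with a log2 fold change of -1.01 (edgeR adjusted p 0.039), and the median became -0.11. Of the core and destruction complex genes 4 were called, with a median of -0.09. Ctnnbip1, an inhibitor that binds beta-catenin (log2 fold change 1.40, edgeR adjusted p 0.0489), and Cby1, an antagonist of beta-catenin (2.48, edgeR adjusted p 0.026), were higher. Ctnnb1 and Apc, a scaffold of the destruction complex (-1.06, edgeR adjusted p 0.0451), were lower. With the length trend also removed, none of the response genes and 1 of the core genes, on the higher side, passed. Over all genes, 0.493% were called higher and 0.223% lower in that setting. The Wnt receptors had a median of -0.44 without Ezh2 ECKO 2, with none called.

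The 11 PRC2 subunit genes had a median of 0.02, which was -0.20 without Ezh2 ECKO 2, and overlapping groups for each. Suz12, a core subunit, was at 50.5, 52.6 and 50 CPM in beta-catenin GOF and 74.1, 38.7 and 74.5 CPM in the labelled Ezh2 ECKO libraries. Ezh1, the paralog of Ezh2, was at 33.8, 45.9 and 30 CPM against 27.9, 30.9 and 32 CPM. Neither differed beyond its overlap. Of 60 developmental genes listed as Polycomb targets, only 9 averaged enough counts to be tested, so the values do not speak for the list as a whole. Among these 9, 3 were above and 6 below 0, with 1 higher and 3 lower without overlap (7.97% and 8.67% of all genes). Tbx3, a T-box factor, was at 36.2, 39.6 and 26.7 CPM in beta-catenin GOF against 80.6, 43.3 and 60.9 CPM (edgeR adjusted p 0.296), and Cdkn2b, a CDK inhibitor, at 93.7, 85.1 and 58.1 CPM against 28.2, 65.6 and 21.8 CPM (edgeR adjusted p 0.306).

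The 35 blood-brain barrier genes had a median of 0.02, with 2 higher and 2 lower without overlap (7.97% and 8.67% of all genes) and none past the threshold. Cldn5, the main claudin of its tight junctions, was at 1660, 2190 and 1030 CPM in beta-catenin GOF and 496, 1170 and 389 CPM in the labelled Ezh2 ECKO libraries. Only Ezh2 ECKO 2 reached into the range of beta-catenin GOF (log2 fold change 1.25 with an SE of 0.44, edgeR adjusted p 0.305), and without it the value was 1.88 (edgeR adjusted p 0.0337). With the length trend also removed it was 1.43, and the call was lost (edgeR adjusted p 0.0661). Slc2a1, the glucose transporter GLUT1, overlapped at 574, 690 and 775 CPM against 779, 579 and 654 CPM. Tfrc, the transferrin receptor, was at 495, 492 and 481 CPM against 760, 528 and 961 CPM (log2 fold change -0.61, edgeR adjusted p 0.36).

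Markers of pericytes and smooth muscle, the mural cells that wrap these vessels, lay mostly above 0. Of 14 tested, 12 were above 0, 6 were higher without overlap (7.97% over all genes) and none passed, with a median of 1.77. The summed level was 611, 167 and 179 CPM in beta-catenin GOF and 75.9, 102 and 82.2 CPM in the labelled Ezh2 ECKO libraries. Beta-catenin GOF 1 was the highest, and the groups did not overlap with or without it. WT summed to 101, 132 and 180 CPM and overlapped with beta-catenin GOF. Hdac2 ECKO summed to 427, 195 and 323 CPM, so the higher level was not particular to beta-catenin GOF. Without Ezh2 ECKO 2, 3 of the markers were called higher (3.82% of all genes), and none with the length trend also removed, at medians of 1.68 and 1.61. Rgs5, a pericyte gene, was at 82.8, 52.8 and 53.1 CPM against 25.9, 24.2 and 20 CPM (log2 fold change 1.43 with an SE of 0.33, edgeR adjusted p 0.162), and Acta2, smooth muscle actin, at 110, 25 and 25 CPM against 6.61, 17.9 and 8.26 CPM (edgeR adjusted p 0.215). In bulk RNA of sorted cells, fewer cells of a type and less RNA per cell cannot be told apart. The part of these cells in other differences was not tested.

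Other markers stood out in single libraries. Erythroid and platelet genes summed to 35400, 529 and 29200 CPM in beta-catenin GOF and 2530, 6710 and 3510 CPM in the labelled Ezh2 ECKO libraries, so beta-catenin GOF 2 was the lowest of the 6. S100a8 and S100a9, neutrophil genes, were at 79.3 and 69.4 CPM in Ezh2 ECKO 2 and at most 0.409 CPM in the other 5 libraries. Ttr, a choroid plexus gene, was at 88.2, 182 and 22.7 CPM in the labelled Ezh2 ECKO libraries and 33.4, 0 and 0 CPM in beta-catenin GOF. Of the leukocyte markers Cd53, of the neuron markers Nefl, of the oligodendrocyte markers Mog, Olig1 and Olig2, and of the ependymal markers Foxj1 were at 0 in all 6.

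Glycolytic genes lay mostly above 0. Of 16 tested, 12 were above 0 and 5 were higher without overlap (7.97% of all genes), none lower and none past the threshold, with a median of 0.82. Eno1, enolase, was at 136, 326 and 248 CPM in beta-catenin GOF and 42.2, 126 and 49.6 CPM in the labelled Ezh2 ECKO libraries (log2 fold change 1.70 with an SE of 0.52, edgeR adjusted p 0.285). Pfkl, a phosphofructokinase, was at 12.3, 19.5 and 21.3 CPM against 9.04, 7.36 and 5.71 CPM (log2 fold change 1.26, edgeR adjusted p 0.285). Pkm, pyruvate kinase, was at 62.1, 90.9 and 148 CPM against 43.8, 57.2 and 50.1 CPM (edgeR adjusted p 0.321). The list's summed level was 1400, 1760 and 2350 CPM against 711, 1600 and 643 CPM, where Ezh2 ECKO 2 overlapped with beta-catenin GOF. WT summed to 2420, 2200 and 1710 CPM, so beta-catenin GOF overlapped with WT and the labelled Ezh2 ECKO libraries lay below it. Hdac2 ECKO was also below WT, at 576, 1300 and 603 CPM. The median was 0.83 with the length trend removed and 0.84 without Ezh2 ECKO 2. Without that library 4 passed on the higher side, Eno1, Gapdh, Ldha and Tpi1 (3.82% of all genes), and none with the length trend also removed.

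Of 24 glutathione transferases and peroxidases, enzymes that detoxify electrophiles and peroxides, 20 were above 0 and 5 were higher without overlap (7.97% of all genes), with a median of 0.40. The median was 1.09 without Ezh2 ECKO 2, where 2 were called higher (3.82% of all genes), and 0.64 with the length trend also removed, where none was. Gstt3 was at 20.2, 20.5 and 21.1 CPM in beta-catenin GOF and 11.5, 10.1 and 7.87 CPM in the labelled Ezh2 ECKO libraries (edgeR adjusted p 0.285). Leukocyte adhesion genes were above 0 in 9 of 10, with a median of 0.59 and 2 higher without overlap (7.97% of all genes), Icam2 and F11r. Icam2, an endothelial ligand of leukocyte integrins, was at 285, 335 and 321 CPM against 151, 266 and 132 CPM (edgeR adjusted p 0.373).

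Immediate early genes, transcription factors and regulators induced within minutes of a stimulus, lay mostly below 0. Of 20 tested, 15 were below 0 and 6 were lower without overlap (8.67% over all genes), none passed, and the median was -0.55. Egr3 was at 14.1, 5.33 and 7.87 CPM in beta-catenin GOF and 33.9, 39 and 46.2 CPM in the labelled Ezh2 ECKO libraries (log2 fold change -2.13 with an SE of 0.50, edgeR adjusted p 0.183). Fos was at 1080, 688 and 840 CPM against 1480, 1400 and 1470 CPM (log2 fold change -0.74, edgeR adjusted p 0.455). Of 15 targets and regulators of YAP and TAZ, the effectors of Hippo signalling, 12 were below 0 and 3 lower without overlap (8.67% of all genes), with a median of -0.46. Amotl2, a junction protein that binds YAP, was at 61, 59.6 and 57.1 CPM against 134, 85.5 and 116 CPM (log2 fold change -0.92, edgeR adjusted p 0.275).

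Among flow-responsive genes, Thbd, thrombomodulin, was at 119, 97.5 and 90.8 CPM in beta-catenin GOF and 244, 202 and 250 CPM in the labelled Ezh2 ECKO libraries (log2 fold change -1.18 with an SE of 0.26, edgeR adjusted p 0.16). Klf4, a transcription factor of laminar flow, was at 681, 363 and 341 CPM against 1020, 709 and 957 CPM (edgeR adjusted p 0.305). In neither gene did the groups overlap, while the 12 genes of the list had a median of -0.08, with 3 higher and 3 lower without overlap (7.97% and 8.67% of all genes). Without Ezh2 ECKO 2, 1 was called higher and 1 lower (3.82% and 2.00% of all genes). With the length trend also removed, the only call was 1 lower (0.223% of all genes). Serpine2, an inhibitor of thrombin and plasminogen activators, was at 151, 174 and 333 CPM against 45.8, 96.7 and 66.4 CPM (log2 fold change 1.66 with an SE of 0.39, edgeR adjusted p 0.183), with WT at 56.6, 25 and 25.3 CPM. Of 81 cytosolic ribosomal protein genes, 62 were below 0 and 13 were lower without overlap (8.67% of all genes), with a median of -0.33 that was -0.51 with the length trend removed and -0.16 without Ezh2 ECKO 2.

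**Figure D4:**
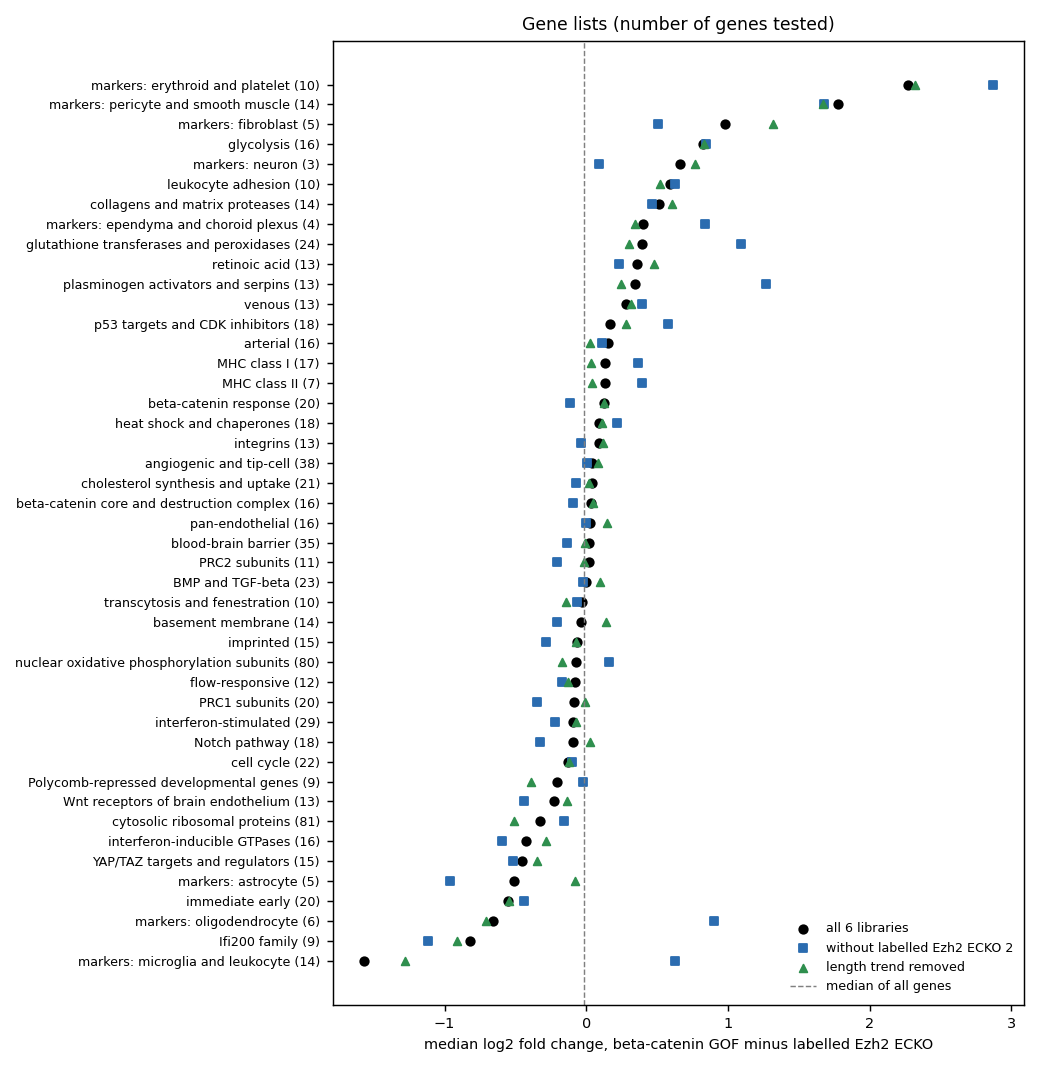
Median log2 fold change, beta-catenin GOF minus labelled Ezh2 ECKO, of each gene list (number of genes tested in parentheses) with all 6 libraries, without Ezh2 ECKO 2 and with the length trend removed. The dashed line is the median of all genes. Pericyte and smooth muscle markers lie at 1.77 and glycolysis at 0.82, and microglia and leukocyte markers change sign without Ezh2 ECKO 2.

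Genes near 8 of the loci were tabulated by position: the 2 targeted genes and 6 of the called genes. Within 5 Mb of the start of Ezh2, 45 genes were tested, and 12 were higher and 3 lower without overlap, which is 33.3% against 16.6% over all genes. Gimap4 lies there, 1154 kb from Ezh2, and of its family Gimap1 (1.18), Gimap3 (2.36), Gimap6 (0.51) and Gimap9 (0.37) were higher without overlap, as log2 fold changes, and Gimap8 (-0.91) was lower. Within 5 Mb of Ifi202b, 71 genes were tested and 26.8% did not overlap, 11 higher and 8 lower. Ifi203 lies 42 kb from it and Dusp23 1332 kb. In the windows of the same size around Ctnnb1, Uchl1, Sgce, Cp, Gdpd3 and Npw, 17.1% to 23.1% did not overlap. Around Ctnnb1 these were 2 higher and 9 lower of 58. Ezh2 and Ifi202b thus had the highest shares of the 8 windows, are described for that reason, and were chosen after these values were seen. The reason for these shares was not tested.

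**Figure D5:**
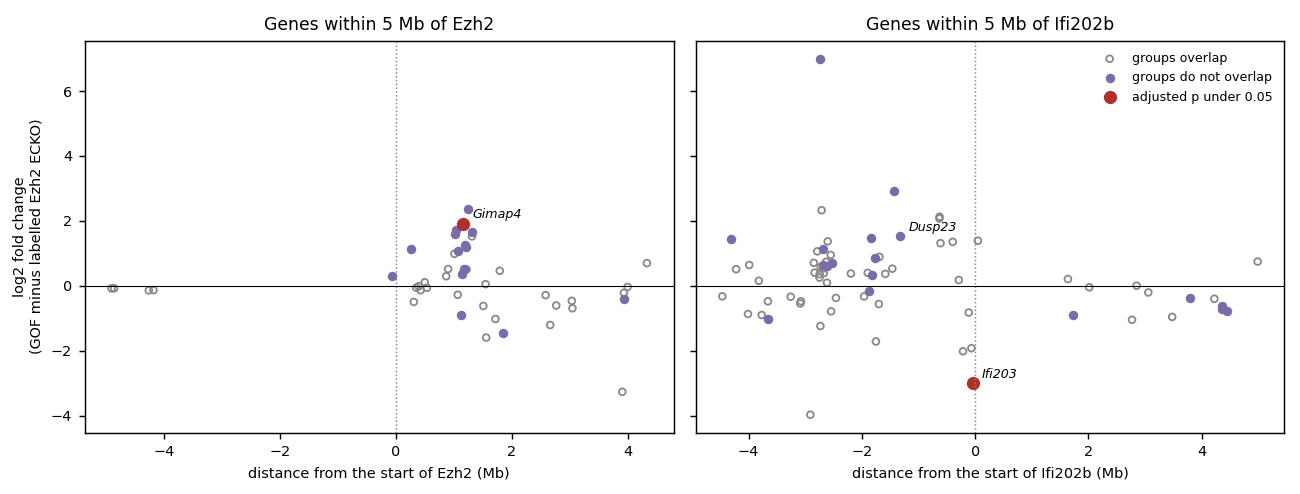
Log2 fold change, beta-catenin GOF minus labelled Ezh2 ECKO, of genes within 5 Mb of the start of Ezh2 (left) and of Ifi202b (right), against distance in Mb. Filled purple points are genes whose groups do not overlap and red points passed an adjusted p of 0.05. Near Ezh2 most of the filled points lie above 0.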

How the data were processed

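RNA-seq of 12 sorted endothelial libraries was used, 6 of them in the comparison. The authors deposited 1 table of counts per gene, with gene length in bases per the file headers. Its title calls the values normalized, but they are whole numbers with unequal totals and were treated as raw counts. The submitters' processing notes name FastQC, cutadapt, STAR, featureCounts, DESeq2 and mm10, with no version or role. Positions are on GRCm38, counted from 1, and 98.4% of genes matched GENCODE M21 by name and both ends. Mitochondrially encoded and sex-chromosome marker genes were not analysed here.

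Counts were fitted with edgeR 4.0.16 in R 4.3.3 (quasi-likelihood F test, TMM scaling, 1 term per group over all 12 libraries, no block). Genes averaging 10 or more counts were tested, with Benjamini-Hochberg adjustment over all of them and a threshold of 0.05. The 3 count floor was 0.0792 to 0.118 CPM of the scaled totals of the 6 libraries. Most counts from 10 to 50 were even, so both mates of a pair may be counted, and intervals and floors, which cover counting error only, are too narrow where they take counts as independent. Replicate pairs were separate libraries by their counts (chi-square per degree of freedom 65.2 or more). The test was tested on simulated data.

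Members and lists were chosen with earlier results of these data known. Named were the targeted genes, every gene called, uncalled genes of smallest p without overlap up to 12 a direction, and up to 4 genes of smallest p per list. Other genes named from the lists (Axin2, Lef1, Suz12, Ezh1, Slc2a1, Fos, Gapdh, Ldha, Tpi1, Cby1, Apc, Stmn2), overlapping genes, the Gimap genes and the markers given by library were chosen after their values were seen. Alternatives were other filters, scalings, DESeq2 1.42.0, limma 3.58.1, removal of length and GC trends, a replicate block, only the 6 libraries, and each library left out. Promoters came from RefSeq on GRCm38.p6, with entries for 6 of the 8 genes called (not Npw or Sgce).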

Additional observations from a re-analysis of the deposited data

Results flagged for a closer look

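For 8 genes the effect against WT differed between beta-catenin GOF and the libraries labelled Ezh2 ECKO, by the edgeR test of the difference itself. WT enters both effects, so the difference equals the direct comparison of the mutants and is no further evidence. The log2 differences were 3.10 for Uchl1, 2.23 for Sgce and 1.91 for Gimap4, and -9.41 for Ifi202b, -6.07 for Npw, -4.09 for Gdpd3, -3.00 for Ifi203 and -2.40 for Cp. The value for Ifi202b is fitted against 2 counts and depends on the prior count.

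Against WT, the libraries labelled Ezh2 ECKO passed for 7 of these genes, with log2 fold changes of -2.59 for Uchl1, -2.67 for Sgce, -1.25 for Gimap4, 9.24 for Ifi202b, 6.34 for Npw, 4.05 for Gdpd3 and 2.06 for Ifi203. Beta-catenin GOF passed for none of the 8 against WT. As the 8 genes were chosen by the values of these same libraries, this contrast does not show which group moved. Cp was at 0.32 in the labelled Ezh2 ECKO libraries and at -2.08 in beta-catenin GOF.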

How the results depend on the processing

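The count of 8 genes (3 higher, 5 lower) depended on the setting. It was 359 with no filter (226 and 133), 14 with library size scaling (6 and 8), 144 with DESeq2 (86 and 58), 15 with limma-trend (6 and 9) and 1466 with voom and quality weights (838 and 628). With a minimum mean count of 50 there were 8 lower genes. All 8 genes of the main fit passed there, the 3 higher ones included. Leaving out 1 library gave 1 to 732 genes, 0 to 481 higher and 1 to 251 lower. Without Ezh2 ECKO 2 and with the length trend removed, added after seeing the data, it was 90 (62 and 28). The replicate numbers did not pair the libraries (same-number correlations 0.001, 0.005 and 0.015). With the number as a block the count was 13 (6 higher), and 14 with the length trend also removed (5 and 9).

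The rank correlation of log2 fold change with gene length, across genes, was -0.25. It was -0.11 with no filter, -0.34 with voom, -0.002 with the length trend removed, 0.006 with the GC trend removed too, -0.007 with the block and -0.015 without Ezh2 ECKO 2, both with the length trend removed. Leaving out 1 library gave -0.369 to -0.132. The value for Ezh2 changed sign to -0.12 with voom, -0.20 without Ezh2 ECKO 2 and -0.05 without beta-catenin GOF 3, with a range of -0.204 to 0.314 when 1 library was left out. All 8 genes passed under DESeq2, limma-trend, voom and the block, and 6 in the fit of 6 libraries.

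With 3 libraries a group the smallest exact permutation p is 0.1, so single values outside the fit were not tested. Low genes rest on few counts.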

Other observations

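Genes of p53 and CDK inhibition, not described above, were above 0 in 12 of 18, with a median of 0.17 and 3 higher and 1 lower without overlap (7.97% and 8.67% of all genes). The median was 0.58 without Ezh2 ECKO 2, where 2 were called higher and 1 lower (3.82% and 2.00% of all genes). With the length trend also removed it was 0.24, and the only call was 1 lower (0.223% of all genes). Phlda3, a p53 target that restrains Akt, was at 5.53, 4.43 and 10.3 CPM in beta-catenin GOF and 0.259, 1.02 and 1.01 CPM in the labelled Ezh2 ECKO libraries (edgeR adjusted p 0.215). Eda2r, a receptor of the TNF family and p53 target, was at 1.98, 0.58 and 2.5 CPM against 0.0324, 0 and 0.144 CPM (edgeR adjusted p 0.275), and had 0 counts in the 3 WT libraries. Pmaip1, also a p53 target, lay the opposite way.

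Aldh1a1, which makes retinoic acid, was at 5.39, 8.92 and 19.8 CPM in beta-catenin GOF against 30.9, 32 and 26.3 CPM (edgeR adjusted p 0.247). Insig1, a sterol-regulated protein of the endoplasmic reticulum, was at 7.78, 9.92 and 9.29 CPM against 27.2, 19.8 and 13.8 CPM (edgeR adjusted p 0.251). In neither gene did the groups overlap, and neither passed.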
